A study of Mus musculus with 9 samples.

Results

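Most of the 32 genes described here encode enzymes and carriers by which liver mitochondria take up fatty acids, shorten them by beta-oxidation and turn the product into ketone bodies. The rest include genes of branched-chain amino acid breakdown, of carnitine uptake into the cell, and of fuel choice, uncoupling and side reactions. Counts and medians over the 32 include them. The 32 genes were taken by symbol from a table of 17442 genes measured by RNA sequencing in mouse liver, and all 32 were present. The livers came from 9 male C57BL/6 mice that had all eaten a high-fat, high-cholesterol diet for 16 weeks, labelled as a model of non-alcoholic fatty liver disease. In 4 of the mice Msr1, which encodes a macrophage scavenger receptor, was intact (labelled Msr1+/+, here wild type), and 5 mice were labelled Msr1-/-, with 1 library per animal. The labels give neither the age of the mice nor the design of the Msr1 allele. The comparison asks how the transcripts of fat oxidation differ between these genotypes on the same diet.

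Fatty acids reach the mitochondrial matrix as carnitine esters, are oxidised in repeated turns of dehydrogenation, hydration, a further oxidation and thiolysis, and leave as acetyl-CoA. In liver much of that acetyl-CoA is condensed to ketone bodies, which other tissues burn. Many of these genes are textbook targets of the nuclear receptor PPAR alpha, which fatty acids activate.

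Values are read counts divided by a size factor, called normalised counts below, and were given by the authors. Between 15006773 and 18238932 reads per liver lay behind them. Msr1 itself had reads in every liver, at 256, 202, 460.5 and 194 in wild type 1 to 4 and 157, 153, 209, 186 and 172 in Msr1-/- 1 to 5. Its mean log2 difference was -0.58 (two-sided exact permutation p = 0.0476, and 0.107 without wild type 3). With 1 liver left out in turn, this permutation p was 0.0286 without Msr1-/- 3 and 0.0714 to 0.107 without any other. Fewer splits were then possible. The smallest p that the permutation test could give was 0.0286 without an Msr1-/- liver and 0.0357 without a wild-type liver. The level of Msr1 therefore does not clearly check the labels, and the directions given below take the genotypes from the labels. Wild type 3 stood apart from the other livers, at -88.74 on the first principal component of all tested genes against -8.3 to 27.61 in the other 8. Results that change with it are therefore given with and without it. All 13 hepatocyte markers, albumin among them, had reads in every liver. Their summed normalised counts were 1604000 in wild type 3 and 2065000 to 2869000 in the others. The sum over all genes was also lowest in wild type 3, at 13330000 against 15600000 to 19020000 in the others.

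The promoter stretches below were read from RefSeq on GRCm38 (the assembly of mm10) and cut so that they hold no exon annotated in GENCODE. For Cpt1a GENCODE also lists an earlier start, at 3322334, so that the stretch shown lies before the RefSeq start but inside the gene as GENCODE bounds it. Slc25a20 and Ucp2 are shown because they had the smallest p values among the 32 genes and differed in opposite directions, Cpt1a and Acadm because they hold the hexamer AGGTCA that nuclear receptors recognise, and the stretch between Hadha and Hadhb because it is all that separates 2 genes for subunits of 1 enzyme. They were chosen after the values were seen. Capitals mark AGGTCA or the GC box GGGCGG on either strand.
Slc25a20 (chr9:108661886-108662087, plus strand): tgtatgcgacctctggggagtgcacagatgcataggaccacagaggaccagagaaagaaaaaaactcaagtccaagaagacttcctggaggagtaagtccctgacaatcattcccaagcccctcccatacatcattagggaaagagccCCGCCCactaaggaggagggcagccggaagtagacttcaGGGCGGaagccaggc
Ucp2 (chr7:100493108-100493336, plus strand): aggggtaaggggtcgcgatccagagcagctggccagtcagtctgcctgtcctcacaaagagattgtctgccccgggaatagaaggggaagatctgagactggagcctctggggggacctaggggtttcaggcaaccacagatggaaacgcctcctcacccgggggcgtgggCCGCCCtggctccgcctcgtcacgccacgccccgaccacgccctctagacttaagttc
Cpt1a (chr19:3323051-3323284, plus strand): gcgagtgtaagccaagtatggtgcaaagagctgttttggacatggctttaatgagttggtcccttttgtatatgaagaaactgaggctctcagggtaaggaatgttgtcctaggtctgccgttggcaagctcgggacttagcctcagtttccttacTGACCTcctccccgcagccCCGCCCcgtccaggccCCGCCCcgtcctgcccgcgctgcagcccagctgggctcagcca
Acadm (chr3:153944644-153944893, minus strand): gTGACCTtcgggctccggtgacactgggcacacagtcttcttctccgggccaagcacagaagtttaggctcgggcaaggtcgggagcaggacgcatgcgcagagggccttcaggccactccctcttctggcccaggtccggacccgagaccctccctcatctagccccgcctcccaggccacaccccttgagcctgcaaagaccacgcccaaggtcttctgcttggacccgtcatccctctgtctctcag
Hadha-Hadhb (chr5:30155163-30155247, shown on the plus strand): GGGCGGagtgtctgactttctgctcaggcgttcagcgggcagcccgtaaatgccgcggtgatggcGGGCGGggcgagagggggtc
RefSeq windows of 300 bases, from 250 before to 50 after a start, were matched for 26 of the 32 genes. The direct repeat of AGGTCA spaced by 1 base, a consensus for PPAR alpha with its partner RXR and searched on both strands, was in 0 of the 26 and in 0.0396% of all 32851 windows. AGGTCA, searched on both strands and contained in the direct repeat, was in windows of 4 genes (Cpt1a, Acadm, Acadvl and Echs1), against 16.3% of all windows. GGGCGG, likewise on both strands, was in windows of 19 genes, against 35.7% of all windows; the windows of Hadha and Hadhb overlap and both count. These matches describe letters in a short window and not binding.

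Most of the 32 genes had higher mean levels in the livers labelled Msr1-/-, by modest amounts, but none passed the test over all 9 livers. A log2 fold change above 0 was found for 29 of them, against 52.7% of the 12937 genes tested, and the median was 0.30 against 0.02 over all tested genes. With limma's Benjamini-Hochberg adjusted p, 0 of the 32 were called higher and 0 lower at a threshold of 0.05, where 0.665% and 0.703% of all tested genes were called. At an unadjusted p under 0.05 there were 11 higher and 1 lower (34.4% and 3.12% of the 32), against 7.30% and 8.00% of all tested genes. The edgeR quasi-likelihood test also called 0 (against 0.572% higher and 0.858% lower of all tested), while DESeq2 called Slc25a20, Acadl and Acaa2 higher and Ucp2 lower (against 2.37% and 3.60%). With array weights, which give a divergent library less weight, limma called 6 higher and 1 lower (against 2.14% and 1.96%). Every liver labelled Msr1-/- lay above every wild-type liver in 4 genes, Slc25a20, Acadl, Hadh and Acaa2, and below in 1, Ucp2, where 3.30% and 3.99% of all tested genes separated in these directions. With quantile scaling of the log2 values the median of the 32 was 0.17. The 32 genes were chosen with earlier results of these data known, and many vary together from liver to liver. The shares given here and below only describe the list.

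Leaving out wild type 3 brought 9 of the 32 genes past the limma threshold as higher and 1 as lower, 28.1% and 3.12%, against 2.59% and 2.32% of the 12823 genes then tested. The 9 were Cpt1a, Slc25a20, Crat, Acadm, Acads, Acad11, Acat1, Bdh1 and Aldh3a2, and the 1 was Ucp2. The median was then 0.39, with 0.00 over all tested genes, and 30 of the 32 differences were above 0 (50.5% of all tested). At an unadjusted p under 0.05 there were 21 higher and 2 lower (against 11.3% and 10.2%). The genotypes separated upward in 16 genes and downward in 1 (against 7.46% and 6.71%). Without wild type 3, edgeR called 8 higher and 1 lower (against 2.37% and 2.75%) and DESeq2 15 and 1 (against 4.20% and 4.06%). No gene of the 32 was called on leaving out any other single liver. In the plot of values by liver, the open diamonds of wild type 3 lie to the right of the other wild-type points in most rows.

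**Figure D1:**
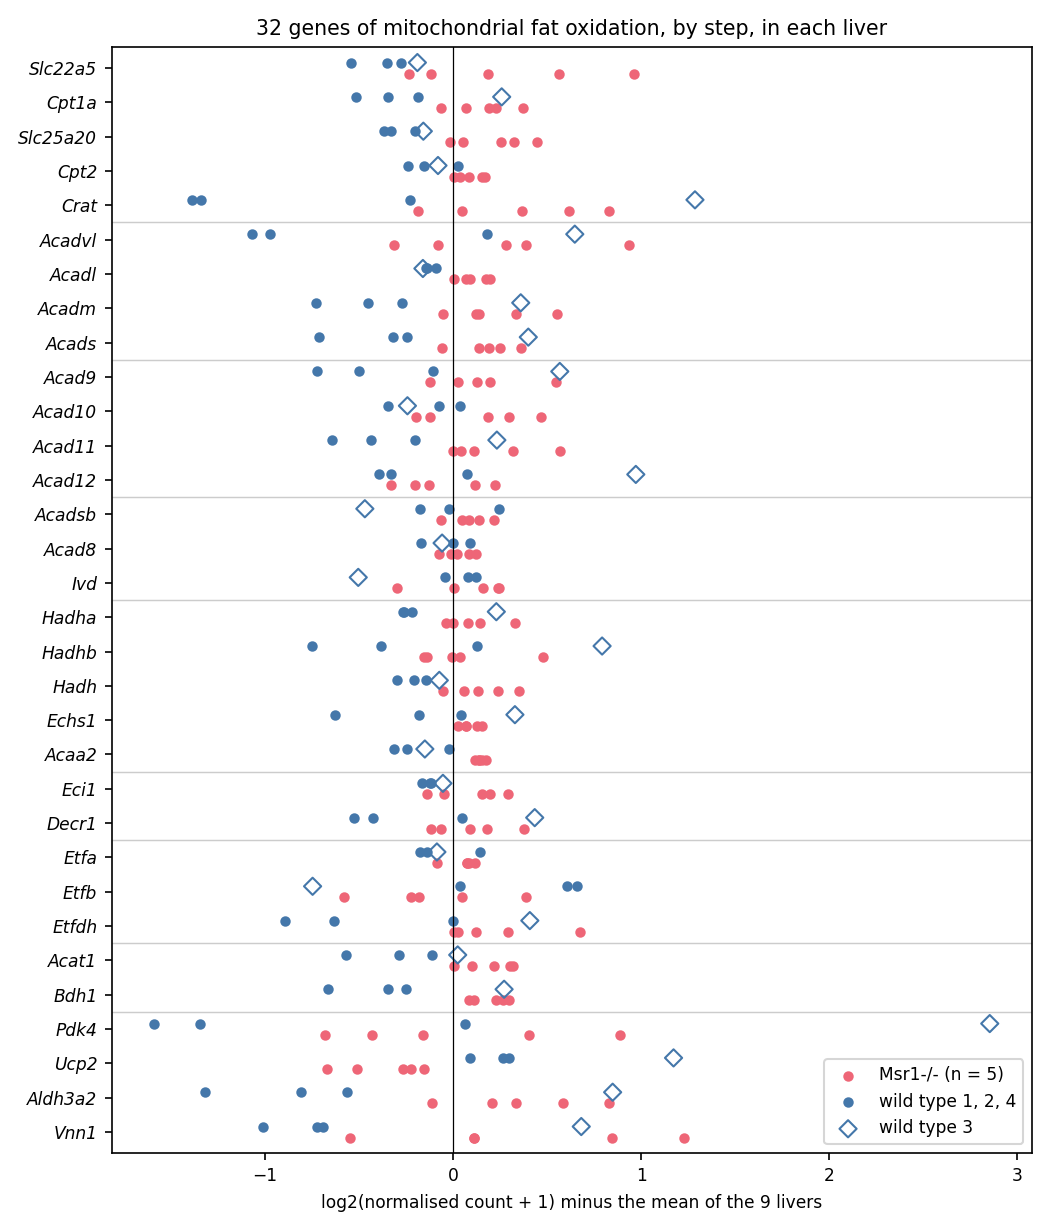
Each row is 1 gene, grouped by pathway step between the grey lines, and each point is 1 liver; the horizontal axis is log2(normalised count + 1) minus the mean of the 9 livers. Red points are the 5 livers labelled Msr1-/-, blue points wild type 1, 2 and 4, and the open diamond is wild type 3, which is the highest wild-type liver in 23 of the 32 rows.

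The step of carnitine uptake and acyl-carnitine entry had the largest median of the 9 steps on all livers, 0.48 over its 5 genes. Straight-chain dehydrogenases and ketone body enzymes were close to it, both at 0.44. Its largest log2 differences were those of Crat (0.75) and Slc22a5 (0.61), which do not themselves bring fatty acids into the mitochondrion. Cpt1a, Slc25a20 and Cpt2, which do, had 0.36, 0.48 and 0.20. Without wild type 3 the median of this step was 0.51, when 3 of the 5 passed, and it was no longer the largest. Pdk4, Ucp2, Aldh3a2 and Vnn1, grouped as fuel choice, uncoupling and side genes, then had a median of 1.06. Straight-chain dehydrogenases had 0.65 and ketone body enzymes 0.57. Slc25a20 (chromosome 9, 108662088 to 108684641, plus strand), the carrier that exchanges acyl-carnitine for carnitine across the inner membrane, stood at 1795, 1754, 2025 and 1966 in wild type 1 to 4 and at 2825, 3075, 2345, 2698 and 2230.1 in Msr1-/- 1 to 5. Its groups did not overlap, and its level was 1.39-fold higher (log2 difference 0.48 ± 0.12 SE, limma adjusted p = 0.078, and 0.0371 without wild type 3). In DESeq2 on all 9 livers the adjusted p was 0.00532. Cpt1a (chromosome 19, 3322334 to 3385733, plus strand), the outer-membrane palmitoyltransferase whose inhibition by malonyl-CoA controls entry, held 3935, 3515, 5350.2 and 3124 in wild type and 5787, 5102, 5241, 4687 and 4274 in the livers labelled Msr1-/-. Only wild type 3 reached the range of the other genotype. With it the difference was 0.36 ± 0.16 (adjusted p = 0.324 in limma), and without it 0.51 ± 0.13, a 1.42-fold rise (adjusted p = 0.0404; 0.0503 in edgeR without it). Cpt1b and Cpt1c, the muscle and brain forms of the enzyme, had means under 10 and were not tested.

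Crat, which moves acetyl groups between CoA and carnitine, spread more than any other gene of this step. Wild type 1 and 2 stood at 247 and 239, wild type 4 at 536 and wild type 3 at 1533, against 1116, 963, 809, 650.2 and 552 in the livers labelled Msr1-/-. All 5 of these lay above the first 3 and below wild type 3. The log2 difference went from 0.75 ± 0.48 (limma adjusted p = 0.52) to 1.32 ± 0.28 without wild type 3 (adjusted p = 0.0229), a 2.50-fold rise. Slc22a5, the plasma membrane carrier that brings carnitine into the cell, ranged from 173 to 220.4 in wild type and stood at 492, 373, 286, 232 and 213 in the livers labelled Msr1-/-, a 1.53-fold higher mean on the log scale (limma adjusted p = 0.223; 0.14 without wild type 3). Wild type 3 overlapped only with Msr1-/- 5, and the wide spread lay among the livers labelled Msr1-/-. Cpt2, which rebuilds acyl-CoA inside the matrix, differed least in this step, at 2626 ± 206 (SD, n = 4) against 3019.7 ± 151 (SD, n = 5), with a 95% interval of -0.01 to 0.42 for the log2 difference.

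The first oxidation of each turn is shared by acyl-CoA dehydrogenases of different chain length, and the 4 for straight chains had a median of 0.44, and 0.65 without wild type 3. Acadm, the medium-chain enzyme, stood at 3933, 2857, 6085 and 3469 in wild type 1 to 4 and 6944, 5979, 5212, 5166 and 4571 in Msr1-/- 1 to 5. It rose 1.63-fold without wild type 3 (log2 difference 0.70 ± 0.15, limma adjusted p = 0.0241) and had a difference of 0.49 ± 0.21 with it (adjusted p = 0.283). Wild type 3 lay inside the range of the livers labelled Msr1-/- and the other 3 wild-type livers below it. Acads, the short-chain enzyme, had wild type 3 as the highest of all livers, at 1428, 1087, 2351 and 1504 in wild type and 2121, 2286, 1959.7, 1711 and 2033 in the other genotype. Its difference was 0.40 ± 0.19 (limma adjusted p = 0.366), and 0.60 ± 0.13 without wild type 3 (adjusted p = 0.0274).

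Acadl, the long-chain enzyme (chromosome 1, 66830839 to 66863277, minus strand), had the narrowest wild-type range of the 4. Its wild-type livers lay within 3696 to 3872, wild type 3 included, and the livers labelled Msr1-/- held 4731, 4672, 4402, 4138 and 4331. The groups did not overlap, the level was 1.18-fold higher (0.24 ± 0.09, limma adjusted p = 0.244; 0.193 without wild type 3), and DESeq2 gave an adjusted p of 0.0229 on all livers, a call that was lost without wild type 3 (0.0958). Acadvl, the very-long-chain enzyme bound to the inner membrane, varied most, at 1026, 430.4, 1415 and 460.1 in wild type and 1731, 1183, 854, 726 and 1097 in the livers labelled Msr1-/-. In it wild type 1 and 3 lay among the other genotype while wild type 2 and 4 lay below it, and the log2 difference was 0.54 ± 0.37 (limma adjusted p = 0.545; 0.135 without wild type 3). The exons of Acadvl share 42.9% of their bases with Dvl2 on the opposite strand, so reads of the 2 genes cannot be told apart there without strand.

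Of the less typical members of this family, Acad11 stood at 2629.5, 1934, 3551 and 2237 in wild type and 4487, 3771, 3024, 3113 and 3270.1 in the livers labelled Msr1-/-. Without wild type 3 it rose 1.55-fold (limma adjusted p = 0.035; 0.245 on all 9 livers). Acad9, needed to assemble respiratory complex I, had 202 ± 85.3 against 244 ± 44.7, and Acad10 208 ± 24.7 against 256 ± 49.8. Neither passed in limma or edgeR with or without wild type 3, while DESeq2 without it gave Acad9 an adjusted p of 0.0396. Acad12, the neighbour of Acad10 on chromosome 5, was the only acyl-CoA dehydrogenase gene with a negative difference (-0.15; 0.15 without wild type 3), and wild type 3 held 246 of it against 95 to 132 in the other wild-type livers. As Acad10 and Acad12 are related neighbours, the split of reads between them is uncertain.

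The 3 dehydrogenases that serve breakdown of branched-chain amino acids, Ivd for leucine, Acadsb for isoleucine and Acad8 for valine, had log2 differences of 0.16, 0.19 and 0.06. On leaving out wild type 3 they were 0.02, 0.07 and 0.05. The interval of Acad8 was -0.15 to 0.27 and its levels were 832 ± 62.1 against 868 ± 47.0. In Ivd and Acadsb wild type 3 was the lowest of the 9 livers, at 1836 and 1580.0, whereas in Acadm and Acads it was the highest wild-type liver. None of the 3 passed in either fit.

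**Figure D2:**
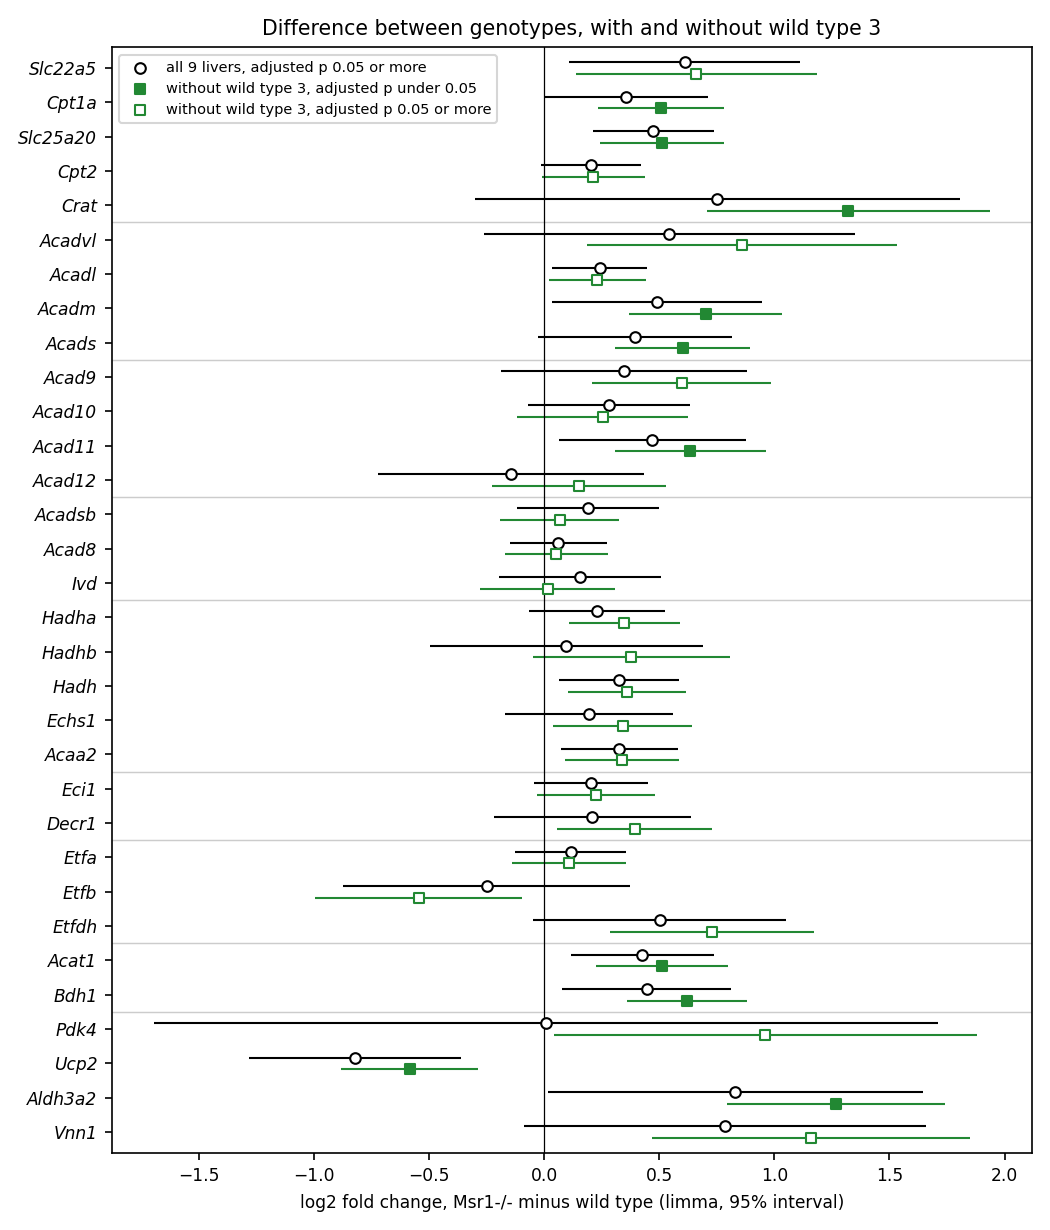
Points are limma log2 fold changes, Msr1-/- minus wild type, with 95% intervals, for the 32 genes in pathway order; circles are all 9 livers and squares leave out wild type 3. No circle is filled, since 0 genes reached an adjusted p under 0.05, and 10 squares are filled, 9 to the right of 0 and Ucp2 to the left.

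The later reactions of the cycle had a median of 0.23 over 5 genes, and 0.35 without wild type 3. Hadh, the matrix hydroxyacyl-CoA dehydrogenase for shorter chains, stood at 6211, 5841, 6815 and 6482 in wild type and 7454, 8455, 7852, 9129 and 6919 in the livers labelled Msr1-/-. The 2 ranges nearly touched but did not overlap (1.25-fold higher, 0.32 ± 0.12, limma adjusted p = 0.21; 0.107 without wild type 3). In DESeq2 its adjusted p was 0.0564 on all livers and 0.0361 without wild type 3. Acaa2, the thiolase that releases acetyl-CoA, was the most abundant of the 32 genes per length of exon and held 14404, 11759, 13168 and 12346 against 16102, 16515, 15854, 16269 and 16096. Its livers labelled Msr1-/- lay within 1 narrow band above every wild-type liver, with a difference of 0.33 ± 0.12 (limma adjusted p = 0.199, and 0.117 without wild type 3; DESeq2 on all livers 0.00491). Echs1, the short-chain enoyl-CoA hydratase, had 2519 ± 676 against 2807 ± 100.2 and did not pass in either fit.

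Hadha and Hadhb encode the alpha and beta subunits of the mitochondrial trifunctional protein, which handles long chains, and start back to back on chromosome 5 with the 85 bases printed above between them. Hadha stood at 3383, 3397, 4767 and 3498 in wild type 1 to 4 and 5116, 4481, 4056, 3957 and 4295 in Msr1-/- 1 to 5. Wild type 1, 2 and 4 were close together and below every liver of the other genotype, and wild type 3 lay inside the range of those livers; the log2 difference was 0.23 ± 0.13 (limma adjusted p = 0.474; 0.0978 without wild type 3). In DESeq2 the adjusted p was 0.512 on all livers and 0.0322 without wild type 3. Hadhb held 879, 479, 1396 and 617 and 1124, 825, 731, 724 and 803. Its genotype means were nearly equal, 843 ± 404 and 841 ± 164, with an interval of -0.50 to 0.69 for the log2 difference of 0.10, whose sign turned in edgeR, DESeq2 and 3 fits with 1 liver left out. Per length of exon, the ratio of Hadha to Hadhb ran from 2.58 in wild type 3 to 5.36 in wild type 2 and lay between 3.44 and 4.20 in the 5 livers labelled Msr1-/-. The spread of this ratio was thus wider among wild-type livers, 3.78 ± 1.28 against 3.98 ± 0.309, and its mean differed by less than that spread.

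Unsaturated fatty acids need extra enzymes. Eci1, which shifts a double bond, had 2137 ± 66.9 against 2477 ± 302, and Decr1, which reduces one, 3089 ± 978 against 3472 ± 485; their differences of 0.20 and 0.21 did not pass (limma adjusted p = 0.433 and 0.691). Electrons of the first oxidation pass to the electron transfer flavoprotein, a dimer of the Etfa and Etfb products, and then to ubiquinone through Etfdh. Etfdh stood at 2715, 1462, 3601 and 1751 in wild type and 4334, 3317, 2765, 2719 and 2949 in the livers labelled Msr1-/- (0.50 ± 0.25, limma adjusted p = 0.381). Without wild type 3 its groups separated, at 0.73 ± 0.20 (adjusted p = 0.0628, and 0.0218 in DESeq2). Etfa had 5624 ± 585 against 6077 ± 327, with an interval of -0.13 to 0.36 for its log2 difference. Etfb went the other way, at 1555, 2305, 903 and 2396 in wild type and 1014, 1338, 1564, 1983 and 1296 in the livers labelled Msr1-/-, a difference of -0.25 ± 0.28 (limma adjusted p = 0.764) and -0.54 ± 0.21 without wild type 3 (adjusted p = 0.151). Its livers ran against those of Etfdh: wild type 2 and 4 were highest for Etfb and lowest for Etfdh, and wild type 3 and Msr1-/- 1 the reverse. The exons of Etfb share 53% of their bases with Gm45233 on the same strand, which is not among the genes of the table. Per length of exon, Etfa over Etfb ranged from 1.37 in wild type 4 to 3.98 in Msr1-/- 1.

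Both ketone body genes among the 32 were higher without wild type 3. Acat1, the mitochondrial thiolase that joins and splits acetoacetyl-CoA (chromosome 9, 53580522 to 53610382, minus strand), stood at 6684, 4869.9, 7349.9 and 5912 in wild type and 8997, 8412, 7739, 8927 and 7261 in the livers labelled Msr1-/-. Wild type 3 reached just above the lowest of the other genotype; the difference was 0.43 ± 0.14 (limma adjusted p = 0.173), and 0.51 ± 0.13 without it (1.43-fold, adjusted p = 0.0459; 0.0571 in edgeR without it). Bdh1, which reduces acetoacetate to beta-hydroxybutyrate (chromosome 16, 31422280 to 31458901, plus strand), held 3320.3, 2663, 5102 and 3558 and 5089, 5193, 4955, 4569 and 4490.3. Here too wild type 3 lay inside the range of the livers labelled Msr1-/- and the other 3 below it, so the difference of 0.45 ± 0.17 (limma adjusted p = 0.223) became a 1.54-fold rise without wild type 3 (0.62 ± 0.12, adjusted p = 0.0153). The predicted gene Gm15743 shares 13.7% of the exon bases of Bdh1 on the opposite strand.

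Slc16a7, a monocarboxylate carrier that can transport ketone bodies, is not among the 32 but belongs to the wider pathway. It stood at 807, 656, 1372 and 725 against 1809, 1676, 1869, 1636 and 1407 and rose 1.96-fold (0.97 ± 0.20, limma adjusted p = 0.041; 0.0566 in edgeR). Its groups came closest at wild type 3 and Msr1-/- 5 without overlapping, and its call was kept only without wild type 3 among the 9 fits with 1 liver left out. With quantile scaling its limma adjusted p was 0.0515.

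**Figure D3:**
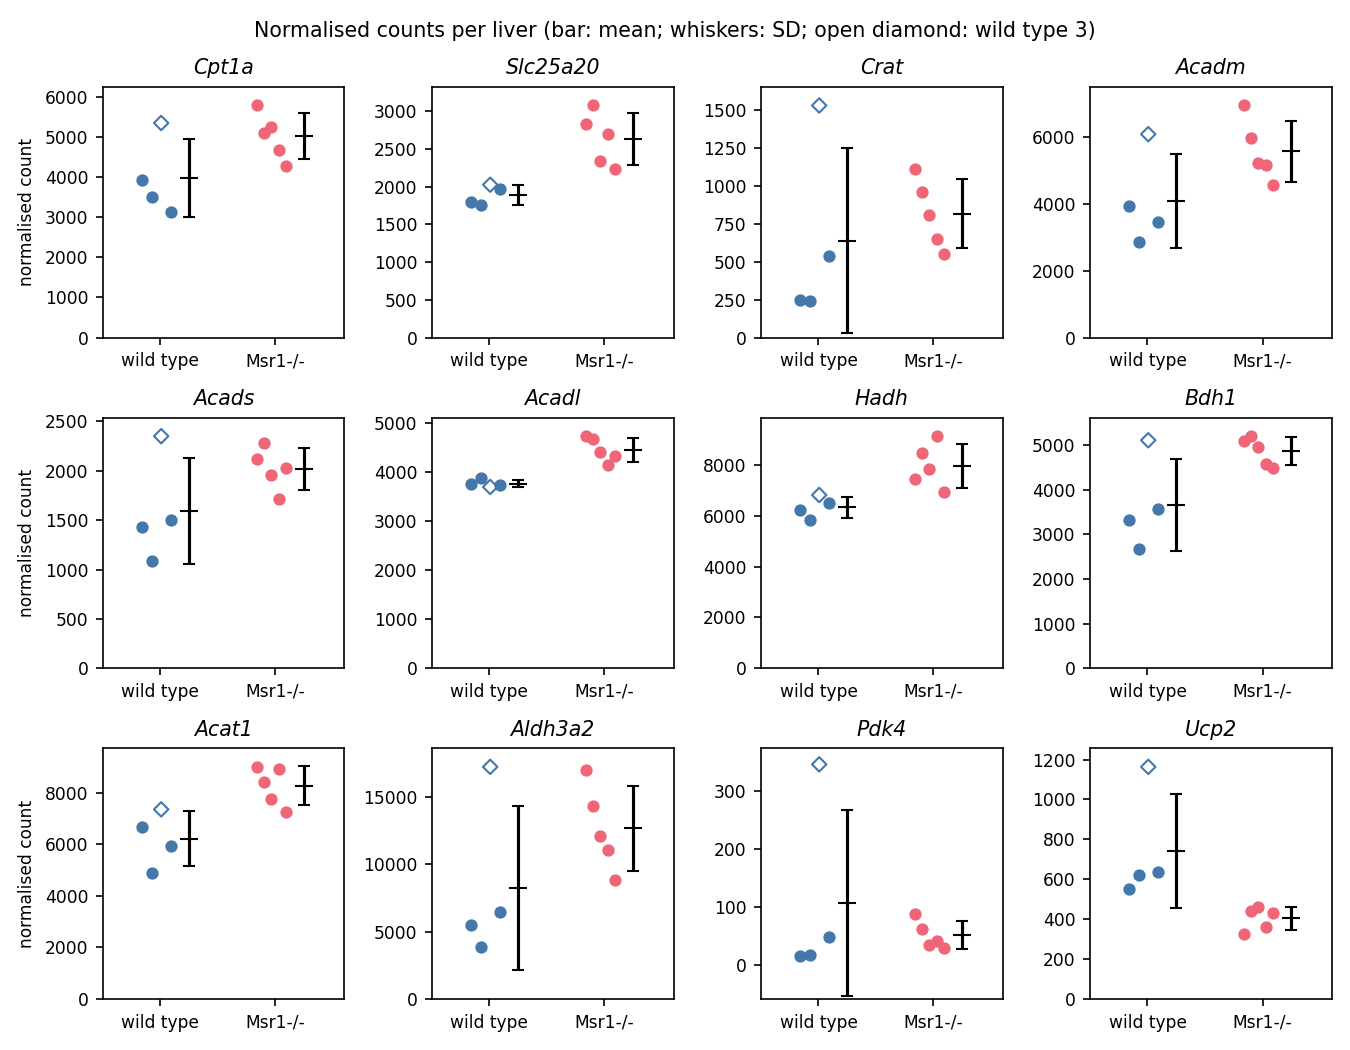
Normalised counts in each liver for 12 of the 32 genes, with the mean and SD of 4 wild-type and 5 Msr1-/- livers; the open diamond is wild type 3 and each vertical axis includes 0. Slc25a20, Acadl and Hadh separate the genotypes upward and Ucp2 downward, while in Crat, Acads, Aldh3a2 and Pdk4 wild type 3 lies above every other liver.

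Among the genes beside the pathway, Ucp2, a carrier of the inner membrane related to the uncoupling protein of brown fat, was the only gene of the 32 that lay lower in every liver labelled Msr1-/- than in every wild-type liver. It stood at 549.6, 619, 1163 and 635 in wild type 1 to 4 and 324, 441, 463, 361 and 429 in Msr1-/- 1 to 5. Wild type 3 was the highest liver, yet the groups stayed apart without it (1.77-fold lower, -0.82 ± 0.21, limma adjusted p = 0.0822; without wild type 3 it fell 1.5-fold, -0.58 ± 0.14, adjusted p = 0.0326). DESeq2 on all 9 livers gave an adjusted p of 0.00715. Ucp2 is known to be expressed in macrophages as well as in hepatocytes of fatty liver. The summed level of 12 Kupffer cell markers was 8539 to 18260 in wild type (highest in wild type 3) and 5314 to 7109 in the livers labelled Msr1-/-, with a negative log2 fold change in 11 of the 12 and 1, C1qa, past the limma threshold as lower. Without wild type 3, 12 of the 12 were negative and 4 passed. The summed level of 12 markers of lipid-associated and monocyte-derived macrophages was 3139 to 14320 (again highest in wild type 3) and 1741 to 2220, with 12 of 12 negative, of which Lpl passed. On leaving out wild type 3, 11 of 11 tested were negative and 5 passed, and the median went from -1.38 to -0.86. The part of these cells in the Ucp2 result was not tested, and in bulk tissue fewer cells of a type and less RNA per cell cannot be told apart. No marker of either list had a mean under 10 over all 9 livers. Without wild type 3, 11 of the 12 markers of lipid-associated and monocyte-derived macrophages reached that minimum. Over all tested genes, limma called 0.703% lower on all livers and 2.32% without wild type 3. A log2 fold change above 0 was found for 52.7% and 50.5% of them.

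Pdk4, the kinase that turns pyruvate dehydrogenase off when fat is burned, had the log2 difference that moved most among the 32 genes on leaving out wild type 3. It stood at 15, 17.9, 347 and 49.3 in wild type and 88.0, 62.6, 34.7, 42.1 and 29.1 in the livers labelled Msr1-/-. Wild type 1 and 2 lay below all 5 of these, wild type 4 among them and wild type 3 far above. The log2 difference was 0.01 ± 0.77 (limma adjusted p = 0.998) with all livers and 0.96 ± 0.42 without wild type 3 (adjusted p = 0.212), and edgeR on all livers gave the opposite sign, -1.09. Aldh3a2, a fatty aldehyde dehydrogenase, held 5465, 3835, 17259 and 6494 and 17058, 14359, 12102, 11084 and 8859. Without wild type 3, which exceeded every other liver, it rose 2.41-fold (1.27 ± 0.22, limma adjusted p = 0.00967, the smallest of the 32 genes in that fit), and with it the adjusted p was 0.315. Vnn1, a pantetheinase that frees pantothenate, the vitamin from which CoA is built, stood at 796, 653, 2112 and 815 and 3089, 2366, 1420.0, 1419.6 and 901, a difference of 0.79 ± 0.40 (limma adjusted p = 0.387; 0.0601 without wild type 3; edgeR 0.435 on all livers and 0.0479 without it). Neither Aldh3a2 nor Vnn1 encodes an enzyme of the beta-oxidation spiral itself.

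Livers of 1 genotype also differed from each other over the 32 genes. Taking each gene against its mean over the 9 livers, the median log2 deviation was -0.15, -0.38, 0.25 and -0.22 in wild type 1 to 4 and 0.29, 0.19, 0.10, 0.10 and 0.00 in Msr1-/- 1 to 5. Wild type 3 was the highest wild-type liver in 23 genes. It lay above every liver labelled Msr1-/- in 10 genes and below every one in 9, against 3, 2 and 2 above and 19, 26 and 24 below for wild type 1, 2 and 4. Wild type 2 was the lowest of its group in 20 genes. Among the livers labelled Msr1-/-, Msr1-/- 1 was highest in 18 genes and Msr1-/- 5 lowest in 14. Reads of genes encoded by mitochondrial DNA made up 7.54% of all reads in wild type 3 and 8.65% to 13.8% in the other livers; their part in these results was not tested.

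Levels between genes can be compared only per length. Per kilobase of annotated exon, mean normalised counts in wild type ran from 22.0 for Acad12, 24.6 for Acad9 and 30.5 for Pdk4 to 1651 for Acat1, 1878 for Acadl, 3065 for Etfa and 8522 for Acaa2. Cpt1a stood at 521 and Cpt2 at 1098 on this scale. Within the straight-chain dehydrogenases the order was Acadl, Acadm, Acads and Acadvl in both genotypes. Exon lengths cover every annotated transcript, so genes with long minor transcripts are understated.

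Around the 32 genes, a list of 55 further genes of fatty acid supply, mitochondrial fat enzymes, ketone export and their regulators had 49 tested members, with 2 called higher, Slc16a7 among them, and 0 lower, and a median log2 fold change of 0.20. Leaving out wild type 3 gave 8 higher and 0 lower. Of all tested genes 0.665% were called higher and 0.703% lower on all livers, and 2.59% and 2.32% without wild type 3. Those added included Acsf3, Sirt3, a mitochondrial deacylase, and Acsl1, which activates long-chain fatty acids, with Ppara and Pparg. Acsl1 stood at 10459, 12206, 7033 and 11898 against 19025, 20322, 15519, 17103 and 15644, and here wild type 3 was the lowest liver (1.71-fold higher, 0.78 ± 0.18, limma adjusted p = 0.0618; 0.0259 without wild type 3). Ppara held 351, 293, 386 and 253 and 644, 389, 546, 421 and 475, a difference of 0.62 ± 0.17 (limma adjusted p = 0.112; 0.0375 without wild type 3). Its groups met without overlapping at wild type 3 and Msr1-/- 2. Fgf21, a hormone gene that PPAR alpha induces, ran from 6.42 in wild type 1 to 652 in wild type 3 and was 104, 72.4, 53.9, 26.9 and 24 in the livers labelled Msr1-/- (limma adjusted p = 0.96), the same arrangement as Pdk4. Malonyl-CoA makers and breakers did not pass in either fit, with log2 differences of -0.11 for Acaca, -0.57 for Acacb and 0.03 for Mlycd.

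Lists of other mitochondrial and peroxisomal functions gave a backdrop, to be read against 0.665% of all tested genes called higher on all livers and 2.59% without wild type 3. The 18 tricarboxylic acid cycle genes had a median of 0.13, and 0.18 without wild type 3. Of them 0 were called on all 9 livers and 2 higher without wild type 3 (Idh2 among them). The 18 genes of mitochondrial import, pores and chaperones had a median of 0.01 in both fits, with 0 called in each. Peroxisomal fatty acid oxidation, 16 genes, had a median of 0.40, and 0.44 without wild type 3, where the 32 genes had 0.30 and 0.39. Of the 16, 0 were called on all livers and 5 higher without wild type 3. At an unadjusted limma p under 0.05, 10 of the 16 were higher on all livers, against 7.30% of all tested genes. In it Ehhadh, a bifunctional enzyme of the peroxisomal pathway, had 3693 ± 2286 against 4966 ± 945 (limma adjusted p = 0.424; 0.0175 without wild type 3). The difference between these lists and the 32 genes was not tested. Nnt, a mitochondrial transhydrogenase gene that carries a deletion in one C57BL/6 substrain, had reads in all 9 livers, 573, 555, 996 and 597 in wild type and 899.7, 897, 748, 697 and 792 in the livers labelled Msr1-/- (limma adjusted p = 0.507; 0.036 without wild type 3).

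**Figure D4:**
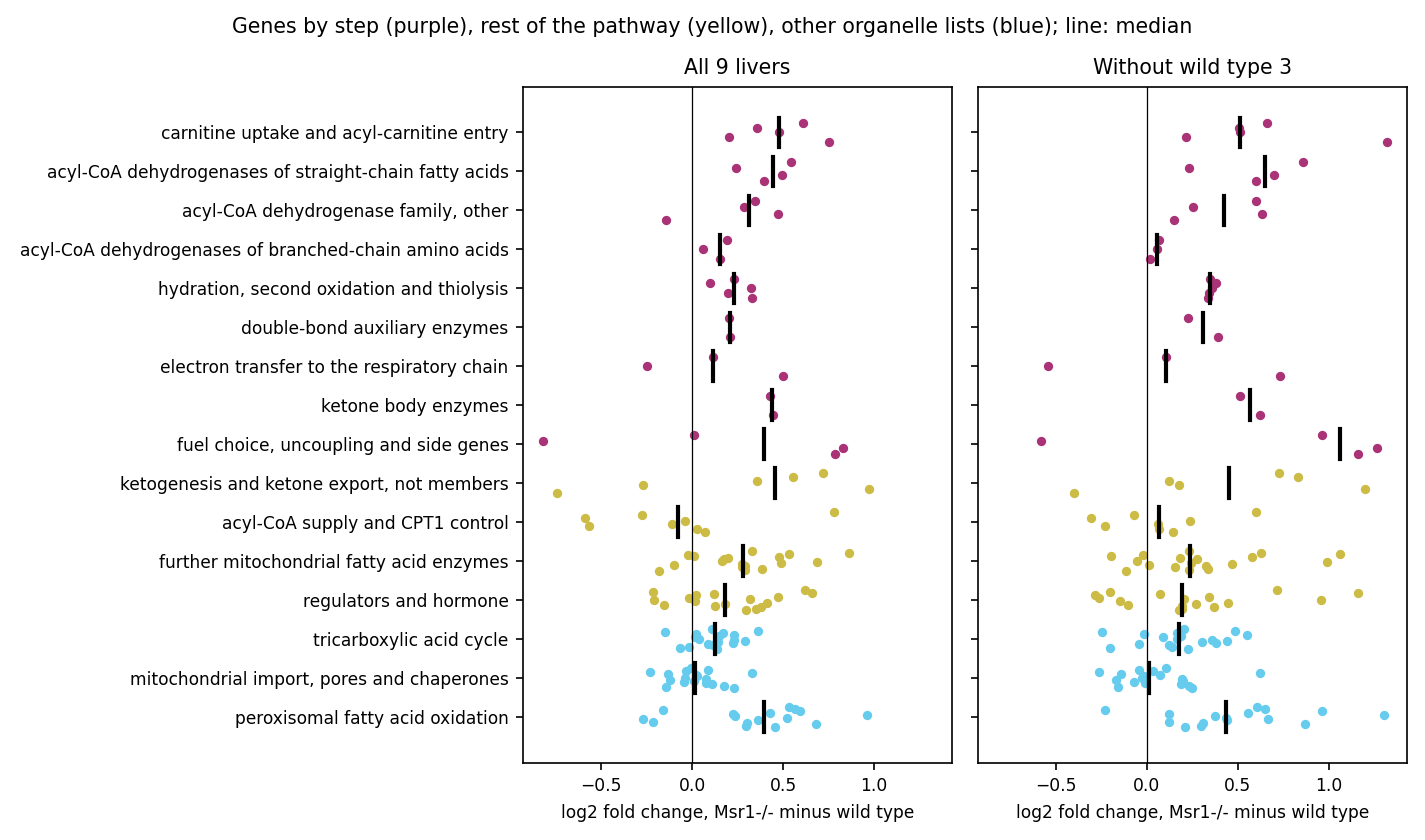
Each point is the limma log2 fold change, Msr1-/- minus wild type, of 1 tested gene, by list; purple lists are the steps of the 32 genes, yellow the rest of the pathway and blue the tricarboxylic acid cycle, mitochondrial import and peroxisomal oxidation, and the black line is the list's median. The left panel uses all 9 livers and the right panel leaves out wild type 3. In the right panel the medians of carnitine uptake and acyl-carnitine entry and of straight-chain dehydrogenation are 0.51 and 0.65. Those of peroxisomal oxidation, the tricarboxylic acid cycle and import genes are 0.44, 0.18 and 0.01.

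Markers of other cells were also summed in each liver. Their calls are to be read against 0.665% of all tested genes called higher and 0.703% lower on all livers, and 2.32% lower without wild type 3. Summed levels of 10 sinusoidal endothelial markers were 4646 to 5237 in wild type and 4243 to 5199 in the livers labelled Msr1-/-, and those of 10 stellate cell markers 5800 to 12390 and 5844 to 6708, the highest in wild type 3. The 6 cholangiocyte markers, of which 3 had a mean under 10, summed to 619 to 1684 and 252 to 548, with Sox9 past the threshold as lower. Spp1 is in this list and in that of lipid-associated and monocyte-derived macrophages, so the sums of these lists are not separate results. The 11 markers of T, B and NK cells summed to 568 to 1032 and 246 to 443, with Igkc past it as lower, and 2 past it without wild type 3. The 4 measured adipocyte markers summed to 107 to 3126 in wild type, highest in wild type 3, and 253 to 966 in the other genotype, with Cfd past the threshold as higher. Adipoq, the defining one, had a mean of 2.29 and 0.395. None of the 6 muscle markers looked for was among the 17442 genes. The 13 hepatocyte markers had a median log2 fold change of 0.01 with 0 called. The part of these cells in the results of the 32 genes was not tested.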

How the data were processed

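Liver RNA of 9 mice, 4 wild type and 5 labelled Msr1-/-, was sequenced from TruSeq libraries, and groups and animal numbers were taken from the sample titles. The submitters' processing notes name STAR, HTSeq and DESeq2 with build mm10, without versions; settings and strand are not given in the sources used here. The authors deposited 1 table of 17442 genes whose signal values are read counts per gene over a size factor per liver. Every value was a whole multiple of 1 step per liver (100% within 0.01 reads), so whole reads were recovered, 15006773 to 18238932 per liver. Depth limits counting error alone; precision is set mainly by variation among animals.

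Values were tested as log2(value + 1) with limma 3.58.1 (R 4.3.3, intensity trend, genotype as the only term) on the 12937 genes with a mean of 10 or more, with Benjamini-Hochberg adjustment over all of them; fold changes are on this scale. All 32 members passed that minimum. Adjusted p values quoted without a tool are limma's. For Msr1 a two-sided exact permutation test was used (smallest possible p 0.0159). Alternatives were pseudocounts of 0.5 and 5, no filter, a mean of 50, TMM and quantile scaling, edgeR 4.0.16, DESeq2 1.42.0, array weights, a block on animal number, and omission of each liver in turn; edgeR and DESeq2 without wild type 3 were added after seeing the data. Coordinates and exon lengths came from GENCODE M21 (GRCm38), matched by symbol for 32 of 32 members, and promoters from RefSeq (GRCm38.p6). Exon bases shared with another gene of the table were found for 8 members.

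The members and lists were chosen with earlier results of these data known. The members, Ppara, Fgf21, Acsl1, Ehhadh, Nnt, Msr1 and further pathway genes past the threshold were named by rule; a few further genes that the rule names are not reported here. Other genes of the cell and organelle lists named for small counts were picked after their values were seen. The rule for promoters asked for members past the threshold, of which there were 0, so those shown were chosen otherwise. On simulated counts (12937 genes, with 100 set to differ 2-fold and another 100 by 4-fold) the test recovered 58.6% and 98.9% of those it could test, and 4.52% of 155 calls were false. No 2 libraries were duplicates (lowest chi-square per gene 19.7).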

Additional observations from a re-analysis of the deposited data

Results flagged for a closer look

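Among 74 groups examined (each gene in the wild-type livers or in those labelled Msr1-/-) 6 values lay far from the rest of their group by Dixon's criterion, which chance meets in about 1 of 20 groups. Of the 6, 4 were wild type 3, each time as the highest wild-type liver: Hadha at 4767, Pdk4 at 347, Ucp2 at 1163 and Vnn1 at 2112. The others were Hadhb in Msr1-/- 1, the highest of its group at 1124, and Etfa in Msr1-/- 3, the lowest of its group at 5511. The cause of these gaps was not tested.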

How the results depend on the processing

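Over all genes, limma called 86 higher and 91 lower; DESeq2 called 307 and 466, array weights 277 and 254, and a mean of 50 or more 69 and 58. With 1 liver left out the counts ran from 19 to 332 higher and 17 to 297 lower, both highest without wild type 3, where edgeR gave 304 and 352 and DESeq2 539 and 520. Of the 32 genes, 0 were called in limma, edgeR, TMM or quantile scaling, either pseudocount or filter, or the block; array weights called 6 higher and 1 lower and DESeq2 3 and 1. Leaving out a liver gave 0 to 9 higher and 0 to 1 lower, and without wild type 3 edgeR called 8 and 1 and DESeq2 15 and 1. Their median log2 fold change lay between 0.17 (quantile scaling) and 0.39 (without wild type 3). The further pathway genes called higher, 2 in limma on all livers, were 1 without a filter and in edgeR, 0 with quantile scaling, 8 in DESeq2 and with array weights, 0 to 8 with a liver left out, and 8 (edgeR) and 12 (DESeq2) without wild type 3. Msr1 differed by -0.58 with quantile scaling (exact permutation p = 0.0635) and by -0.72 to -0.31 with a liver left out.

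The animal numbers did not pair the livers (correlations of deviations 0.025, -0.077, -0.102 and 0.218 for numbers 1 to 4, and 2 of 8 livers matched their own number best). With the animal number as a replicate block, in which Msr1-/- 5 has a level of its own and adds nothing to the comparison, 8 genes were higher and 0 lower, 0 of the 32 and 0 further pathway genes were called, and the median of the 32 was 0.30.

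Of 671 combinations of a gene of the 32 with another setting, 609 kept direction and side of the threshold, 46 passed it and 16 turned direction. Those that turned were Acad12 (0.030 with array weights, 0.14 and 0.15 without wild type 3 in edgeR and DESeq2, and -0.30 to 0.15 with a liver left out), Hadhb (-0.010 in edgeR, -0.0068 in DESeq2, and -0.13 to 0.38 with a liver left out), Etfa (-0.0097 with quantile scaling) and Pdk4 (-0.050 with a pseudocount of 5, -1.09 in edgeR, and -0.52 to 0.96 with a liver left out). Fgf21, at -0.21, turned to 0.21 with array weights, 0.033 with the block, -1.19 to 0.96 with a liver left out, and 0.41 and 0.44 without wild type 3 in edgeR and DESeq2. The cause was not tested.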
